A study of Mus musculus with 56 samples.

Results

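Chromatin accessibility was examined at 39 genes of the lysosome and of its proton pump, taken from a fixed gene list. A locus was the sum of all accessible regions (peaks) centred within 10 kb of the transcription start site (TSS) of a gene, and these 39 loci are part of the 18691 protein-coding loci that hold at least 1 peak. Open chromatin was profiled with bulk ATAC-seq, where a transposase cuts and tags exposed DNA, from 1000 cells for each of 56 libraries. The material was mouse granulocyte-monocyte progenitors (GMP) immortalised with Hoxb8 fused to the oestrogen receptor (Hoxb8-ER), which holds them as progenitors in 0.5 µM beta-estradiol. All came from Tet2 fl/fl animals, and each line descends from a single GMP. Every clone was treated with an integrase-defective lentivirus at a multiplicity of infection of 200, carrying Cre for the Tet2 KO line and GFP for the control line. GM-CSF clones were kept in 10 ng/ml GM-CSF, with 4 Tet2 KO and 4 control lines (clones 19 to 22). SCF clones were kept in 100 ng/ml stem cell factor (SCF), with 24 Tet2 KO and 24 control lines (clones 1 to 5, 7 to 18 and 23 to 29). SCF stands in the titles of clones 20, 21 and 22 but GM-CSF in their treatment field and library names, and they are counted here among the GM-CSF clones.

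The lysosome is the acidic organelle in which cells break down ingested and worn-out material, and it is large and active in phagocytes. It is acidified by the vacuolar ATPase, in which a V1 sector on the cytosolic face hydrolyses ATP and turns a rotor that drives protons through the V0 sector in the membrane. Cathepsins and other hydrolases work in the acid lumen, membrane proteins such as Lamp1 line the organelle, and the transcription factor TFEB switches many of these genes on together by binding the CLEAR element at their promoters.

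The depth of a library was 39379 to 1079233 counts in peaks (median 389432.5), and the 4 shallowest libraries of the GM-CSF set were both lines of clones 19 and 20 (39379 to 114885 counts). Levels are given as CPM, the counts of a locus per 1000000 counts of its library after TMM scaling. A single count equals 24.2 CPM in the Tet2 KO line of clone 19 and 23.3 CPM in that of clone 20, so their values at single loci are coarse. Libraries of clones 19 and 20 did not differ from each other by more than sampling noise within either genotype, nor did SCF Tet2 KO lines 13 and 16. All 10 listed markers of granulocyte-monocyte progenitors had accessible loci, with a median summed level of 705.6 and 742.1 CPM in GM-CSF Tet2 KO and control lines, against 790.6 and 817.3 CPM in SCF Tet2 KO and control lines. In SCF control lines all 8 listed erythroid and megakaryocyte markers (median sum 373.7 CPM) and all 8 lymphoid markers (215.5 CPM) had counts too. Counts at a list of markers therefore do not tell the cell type. Accessibility at Tet2 was not used as a check of the deletion. A locus reports open chromatin and not transcription, and in bulk libraries fewer cells with an open site and less signal per cell cannot be told apart.

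The 39 loci held between 2 and 14 peaks each (median 9, against 6 over all loci) and 342 peaks in all. Of these, 94 were promoter peaks, whose centre is at most 1 kb from a transcript start. Promoter peaks carried a median of 75.17% of the counts of a member locus, against 72.92% over all loci. Over the 10408 loci deep enough to test for Tet2 loss in SCF clones, that median was 84.1%, and the median number of peaks 7. Several members have close neighbours, so that their loci are not theirs alone. At Cd68, a glycoprotein of macrophage lysosomes, 87.5% of counts lay in peaks at promoters of other genes. The same share was 66.5% at Ctsa (cathepsin A), 65.3% at Tcirg1 (a V0 subunit), 62.3% at Tpp1 (a peptidase) and 54.1% at Atp6v1g2 (a V1 subunit). It was 29% at Atp6v0c, which encodes the proteolipid ring of V0, and 0% at Ctsz, Hexa, Gusb and Neu1.

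The promoter sequences of these genes were described separately, with no test, since sequence was not used to choose them. The CLEAR element is known from promoters of such genes, as stated above, so its share here is no independent result. The core of the CLEAR element, TCACGTGA, which reads the same on both strands and contains the E-box CACGTG, was found in 7 of 94 promoter peaks of members (7.45%), against 303 of 34401 promoter peaks of the whole set (0.881%). In peaks away from promoters it was found in 1 of 248 (0.403%), against 867 of 262960 (0.33%). In RefSeq promoters (GRCm38.p6, 250 bases before to 50 after the start), which were at hand for 31 of 39 members, 6 members (19.4%) held the core, against 1.41% of 17491 genes. These 6 were Atp6v0d1, Atp6v0e, Atp6v1a, Ctsa, Ctsd and Mcoln1, which are only in part the loci of the peaks. The windows below, from promoter peaks of 7 loci, are shown because they hold this core, given in capitals, with its flanks in lower case. Each is read 5′ to 3′ on the strand of the gene, in mm10.
Ctsd, chr7:142387908-142387937, minus strand: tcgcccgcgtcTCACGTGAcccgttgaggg
Ctsb, chr14:63122430-63122459, plus strand: gcggtcaagcaTCACGTGAcgaatcagccc
Hexa, chr9:59539620-59539649, plus strand: ttccctcccgtTCACGTGAccctccgattg
Lamp1, first copy, chr8:13159209-13159238, plus strand: agaccctcggcTCACGTGAccggcgggcgc
Lamp1, second copy, chr8:13159236-13159265, plus strand: cgcggcactgcTCACGTGAcaggcgctgcc
Mcoln1, chr8:3500462-3500491, plus strand: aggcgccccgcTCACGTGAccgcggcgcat
Atp6v0d1, chr8:105566050-105566079, minus strand: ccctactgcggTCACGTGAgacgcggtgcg
Atp6v0c locus, chr17:24163739-24163768, minus strand: tcagctgagagTCACGTGAtgcgacctggc
The Atp6v0c window lies in the promoter of the neighbour Amdhd2, 5949 bases downstream of the Atp6v0c start. Of the other motifs searched on both strands, the E-box was in promoters of 35.5% of the 31 members against 8.91% of genes, the GC box GGGCGG in 71% against 49.2%, the CRE TGACGTCA in 3.23% against 2.54%, the PU.1 motif GAGGAAGT in 6.45% against 3.64%, and the C/EBP motif TTGCGCAA in 0% against 0.246%. These matches describe letters in a window, and no binding was measured.

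Levels of the member loci, each summed over a window of the same width, spanned a wide range. In SCF control lines, the highest mean was 284.4 ± 42.7 CPM (SD, n = 24) at Cd68, most of it from promoters of neighbours, followed by Npc2 (136.5 ± 32.1), a carrier of cholesterol in the lumen, and Tcirg1 (133.2 ± 24.7). The next loci were Atp6v0c (127.7 ± 39) and Atp6v1g2 (118.3 ± 14.6), and each of these 4 lay within an SD of the next in order. At the low end, Atp6v1h had 2.31 ± 2.49 CPM and Ctsh (cathepsin H) 12.2 ± 6.11 CPM. Ctss (cathepsin S), used by antigen-presenting cells, had 19.5 ± 7.61 CPM and Ctsz (cathepsin Z) 28.9 ± 9.29 CPM. Tfeb itself had 74.8 ± 17.0 CPM in SCF control lines. Summed over all peaks of the members, the level in CPM after TMM scaling was 2560.5 ± 588.1 in GM-CSF Tet2 KO lines (SD, n = 4) and 3090.5 ± 146.9 in GM-CSF control lines (n = 4). It was 2612.2 ± 97.4 in SCF Tet2 KO lines and 2679.2 ± 109.6 in SCF control lines (n = 24 each). The GM-CSF control lines lay between 2934.5 and 3216.7 and the SCF control lines between 2494.4 and 2984.7, so these groups overlapped at their edge.

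**Figure D1:**
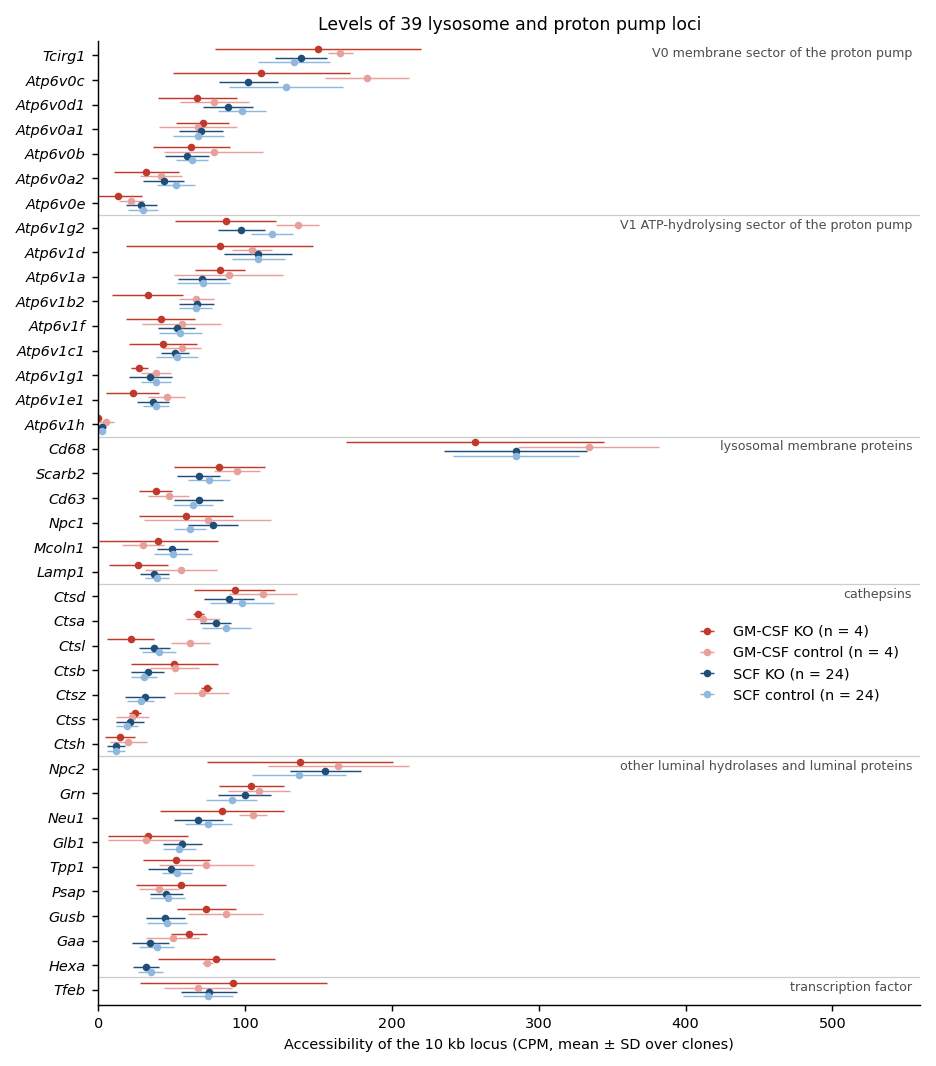
Accessibility of the 39 loci in CPM (horizontal axis, linear) by role in the lysosome, as mean ± SD over the clones of each of the 4 groups (4 clones each in GM-CSF, 24 each in SCF). Cd68 stands highest in each group, with 284.4 CPM in SCF control lines, and the GM-CSF groups sit to the right of both SCF groups at Ctsz, Hexa and Gusb.

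The first comparison asked how these loci differ between progenitors kept in GM-CSF and those kept in SCF, in control lines with intact Tet2. No clone was kept in both cytokines, so clones were compared without pairing, by the quasi-likelihood test of edgeR over all 12933 loci tested with Benjamini-Hochberg adjustment. Of 38 members tested (Atp6v1h was too low), 7 were higher in GM-CSF at adjusted p under 0.05 and 0 were lower, whereas 5.77% of all loci were higher and 6.68% lower. The median log2 fold change was 0.20 for members and −0.01 for all loci. The 7 were the hydrolases Hexa, Gusb and Neu1, the cathepsin Ctsz, the membrane protein Lamp1 and the V0 subunits Atp6v0b and Atp6v0c. Of the luminal proteins 3 of 9 were higher, of the cathepsins 1 of 7, of the membrane proteins 1 of 6, of the V0 sector 2 of 7, and of the V1 sector 0 of 8. Tfeb did not pass (−0.07 ± 0.17, SE, adjusted p = 0.832 in edgeR).

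Of the 10 progenitor markers, 3 were higher in GM-CSF control lines: Ms4a3 (1.16 ± 0.21, SE), Spi1 (0.60 ± 0.15) and Gfi1 (0.48 ± 0.15). The 4 lower ones were Kit, the receptor for SCF (−1.76 ± 0.24), Mpo, the myeloperoxidase of primary granules (−1.0 ± 0.20), Ctsg (−0.87 ± 0.18) and Cebpa (−0.45 ± 0.15). Elane, Prtn3 and Csf3r did not pass. Markers of other cell types moved in the same comparison. The summed level of 10 markers of mature neutrophils was 296.6 to 369.4 CPM in GM-CSF control lines, against 114.4 to 286.1 CPM in SCF control lines, with 4 of 7 tested higher and 0 lower. For 6 markers of mast cells and basophils it was 58.7 to 110.5 CPM in GM-CSF control lines, against 91.7 to 210.2 CPM in SCF control lines, with 3 of 4 tested lower. For 10 markers of monocytes and macrophages it was 208.7 to 259.6 CPM in GM-CSF control lines, against 213.8 to 343.3 CPM in SCF control lines, with 0 of 8 tested past the threshold. The share of counts in promoter peaks averaged 43.3% in GM-CSF control lines and 46.4% in SCF control lines. The part of these shifts in the results below was not tested.

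Ctsz, a carboxypeptidase of monocytes and macrophages, had the largest difference among members. Its locus had 64.9, 49.1, 93.5 and 73.4 CPM in GM-CSF control clones 19 to 22, against a lowest, median and highest value of 9.54, 28.0 and 48.7 CPM in SCF control clones. All 4 GM-CSF clones lay above every SCF clone, although clone 20 only just did and rests on 4 counts. The log2 fold change was 1.43 ± 0.19 (SE, edgeR adjusted p = 8.7e-10).

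Hexa encodes the alpha chain of beta-hexosaminidase, which trims gangliosides. It had 74.2, 73.7, 78.9 and 69.5 CPM in GM-CSF control clones, against 18.3, 36.1 and 54.2 CPM (lowest, median, highest) in SCF control clones, and these groups did not overlap. The difference was 1.00 ± 0.17 on the log2 scale (edgeR adjusted p = 4.34e-06). All 11 peaks of the Hexa locus are also counted for the neighbour Tmem202, whose TSS lies 307 bases away.

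Gusb (beta-glucuronidase) had 120.5, 61.4, 89.9 and 74.6 CPM in GM-CSF control clones, against 19.6, 47.0 and 77.1 CPM in SCF control clones. The GM-CSF clones all lay above the SCF median, and 2 of 4 above every SCF clone (log2 fold change 0.72 ± 0.17, edgeR adjusted p = 0.000888). Neu1, the lysosomal sialidase, had 92.7, 110.5, 113.7 and 104.3 CPM in GM-CSF control clones, against 45.8, 75.9 and 114.4 CPM in SCF control clones. Its 4 GM-CSF values were close together and within the upper part of the SCF range (0.55 ± 0.14, edgeR adjusted p = 0.00362). In a 1 kb window both Gusb and Neu1 lost their calls, in control and in Tet2 KO lines. Neu1 also lost its call in both genotypes without clone 21 or without clone 22.

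Among membrane proteins, Lamp1, the most abundant glycoprotein of the lysosomal membrane, had 83.4, 24.6, 62.4 and 54.1 CPM in GM-CSF control clones, against 19.1, 39.6 and 53.9 CPM in SCF control clones. In 3 of 4 GM-CSF clones it lay above every SCF clone, in clone 22 by a narrow margin, and clone 20, with 2 counts, was below the SCF median (0.53 ± 0.19, edgeR adjusted p = 0.0396). Within 1 kb of the TSS the difference was −0.0039, so this call rests on peaks farther out. The call held in 5 of 15 alternatives, and was lost with DESeq2, library totals, upper-quartile scaling and no filter on low counts, against SCF clones 23 to 29 only, without clones 19 and 20 together, and without clone 19, 21 or 22 alone. Cd63, a tetraspanin of late endosomes and granules, was at −0.51 ± 0.19 (adjusted p = 0.0592) and Mcoln1, the lysosomal calcium channel, at −0.47 ± 0.21 (adjusted p = 0.132), and neither passed.

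In the proton pump, Atp6v0b had 64.9, 49.1, 126.6 and 73.4 CPM in GM-CSF control clones, against 49.4, 62.8 and 95.4 CPM in SCF control clones. These groups overlapped widely, with 1 GM-CSF clone above every SCF clone and 1 below (0.52 ± 0.15, edgeR adjusted p = 0.0107). Atp6v0c had 185.4, 221.0, 170.6 and 154.4 CPM in GM-CSF control clones, against 81.3, 122.9 and 286.1 CPM in SCF control clones. All 4 lay above the SCF median and below the highest SCF clone, 27, whose value rests on 30 counts (0.43 ± 0.13, edgeR adjusted p = 0.0152). Atp6v1a, the catalytic subunit of V1, was closest to the threshold in its sector at 0.42 ± 0.15 (adjusted p = 0.0563).

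**Figure D2:**
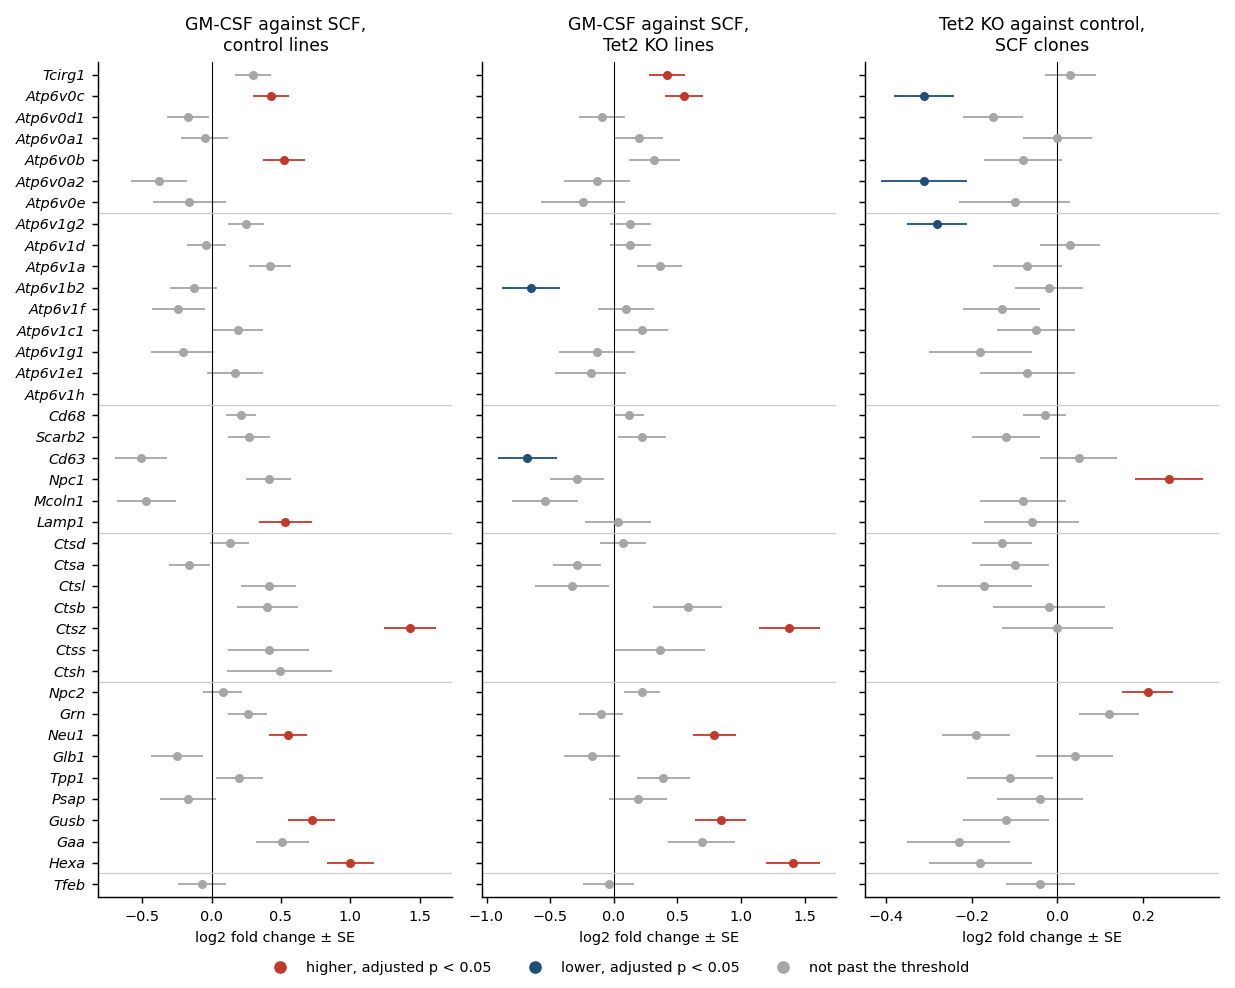
Log2 fold changes ± SE of the member loci (horizontal axis) in GM-CSF against SCF control lines (left), GM-CSF against SCF Tet2 KO lines (middle) and Tet2 KO against control lines of SCF clones (right), with loci past adjusted p 0.05 in red (higher) or blue (lower) and no point where a locus was too low to test. Ctsz (1.43 and 1.38) and Hexa (1.00 and 1.41) stand to the right in both cytokine comparisons, while the right-hand panel spans only −0.31 to 0.26.

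The cytokine comparison was repeated in the Tet2 KO lines, which descend from the same clones and so are not independent of the control lines. Of 37 members tested, 6 were higher in GM-CSF and 2 lower, against 4.23% of all 11378 loci higher and 5.61% lower. Ctsz, Hexa, Gusb, Neu1 and Atp6v0c were higher in both genotypes, and Tcirg1, the V0 a3 subunit known from osteoclasts, was the sixth. The lower loci were Cd63 and the V1 subunit Atp6v1b2. Of the 10 progenitor markers, 3 were higher and 4 lower here too. The median over members was 0.13 on the log2 scale, against −0.02 for all loci. The summed level of the neutrophil markers was 242.3 to 414 CPM in GM-CSF Tet2 KO lines, against 98.4 to 249.9 CPM in SCF Tet2 KO lines, and that of the mast cell and basophil markers 54.7 to 96.9 CPM against 102 to 222 CPM, and their part in the calls was likewise not tested.

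Ctsz had 72.7, 70.0, 78.5 and 73.8 CPM in GM-CSF Tet2 KO clones 19 to 22, against 10.5, 30.0 and 58.3 CPM (lowest, median, highest) in SCF Tet2 KO clones, and again the groups did not overlap (1.38 ± 0.24, edgeR adjusted p = 3.86e-06). A single count equals 24.2 CPM in clone 19 and 23.3 CPM in clone 20, so their values rest on few counts. With 1 count less, either clone would lie within the SCF range. Hexa had 24.2, 116.7, 82.8 and 97.5 CPM in GM-CSF Tet2 KO clones, against 9.27, 33.0 and 48.5 CPM in SCF Tet2 KO clones. Clone 19, with 1 count, lay within the SCF range and the other 3 above it (1.41 ± 0.21, edgeR adjusted p = 6.91e-08). Gusb had 48.5, 70.0, 78.5 and 97.5 CPM in GM-CSF Tet2 KO clones, against 18.5, 46.0 and 64.96 CPM in SCF Tet2 KO clones, with 3 of 4 above every SCF clone (0.84 ± 0.20, edgeR adjusted p = 0.00128). Of these, clone 20 would lie within the SCF range with 1 count less.

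Neu1 had 48.5 and 46.7 CPM in the shallow GM-CSF Tet2 KO clones 19 and 20, from 2 counts each, and 117.7 and 123.7 CPM in clones 21 and 22, against 50.0, 61.7 and 114.4 CPM in SCF Tet2 KO clones (0.79 ± 0.17, edgeR adjusted p = 0.000393). Atp6v0c behaved likewise, with 72.7, 46.7, 170.0 and 154.6 CPM in GM-CSF Tet2 KO clones, against 70.4, 101.4 and 170.3 CPM in SCF Tet2 KO clones (0.55 ± 0.15, edgeR adjusted p = 0.0068). The 2 deep clones were high and the 2 shallow ones at or near the low end of the SCF range, so these calls rest on clones 21 and 22. Tcirg1 had 169.6, 46.7, 176.6 and 204.6 CPM in GM-CSF Tet2 KO clones, against 105.0, 135.7 and 177.1 CPM in SCF Tet2 KO clones (0.42 ± 0.14, adjusted p = 0.0327).

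Of the lower loci, Cd63 had 48.5, 23.3, 39.2 and 45.2 CPM in GM-CSF Tet2 KO clones, against 36.0, 68.8 and 108.3 CPM in SCF Tet2 KO clones, all 4 below the SCF median (−0.68 ± 0.23, edgeR adjusted p = 0.0403). Atp6v1b2 had 0, 46.7, 32.7 and 54.7 CPM in GM-CSF Tet2 KO clones, against 39.6, 66.9 and 92.7 CPM in SCF Tet2 KO clones, with 2 of 4 below every SCF clone (−0.65 ± 0.23, edgeR adjusted p = 0.0488). Without clones 19 and 20, which was tried after seeing the data, 8 members were higher in control lines (4.90% of all loci higher, 5.71% lower) and 6 in Tet2 KO lines (4.47% higher, 4.90% lower). In that fit 0 members were lower in either genotype, and Ctsz, Hexa, Gusb and Neu1 were among the higher in both. Lamp1 and Atp6v0c lost their call in control lines, where Gaa, Npc1 and Atp6v1a gained one. Without clone 21 the calls fell to 3 in control lines and 3 in Tet2 KO lines, in both Ctsz, Hexa and Gusb, and those over all loci to 3.66% higher and 4.42% lower in control lines and 1.28% and 2.28% in Tet2 KO lines. Without clone 22 they fell to 5 in control lines (2.24% of all loci higher, 2.55% lower) and 3 in Tet2 KO lines (1.13% higher, 2.06% lower), where Ctsz, Hexa and Atp6v1b2 were left. Over the 15 alternatives run, Tcirg1 kept its call in Tet2 KO lines in 9 and Atp6v1b2 in 6, and Cd63 in 8 of 14. The share of counts on chromosome X was 1.09% to 1.29% in GM-CSF libraries, against 1.47% to 1.67% in SCF clones 1 to 18 and 1.13% to 1.40% in SCF clones 23 to 29. Against clones 23 to 29 only, 4 members passed in control lines (Ctsz, Hexa, Gusb and Neu1) and 6 in Tet2 KO lines (these 4, Atp6v0c and Cd63). Over all loci 4.17% were then higher and 5.17% lower in control lines, and 3.64% and 5.06% in Tet2 KO lines.

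**Figure D3:**
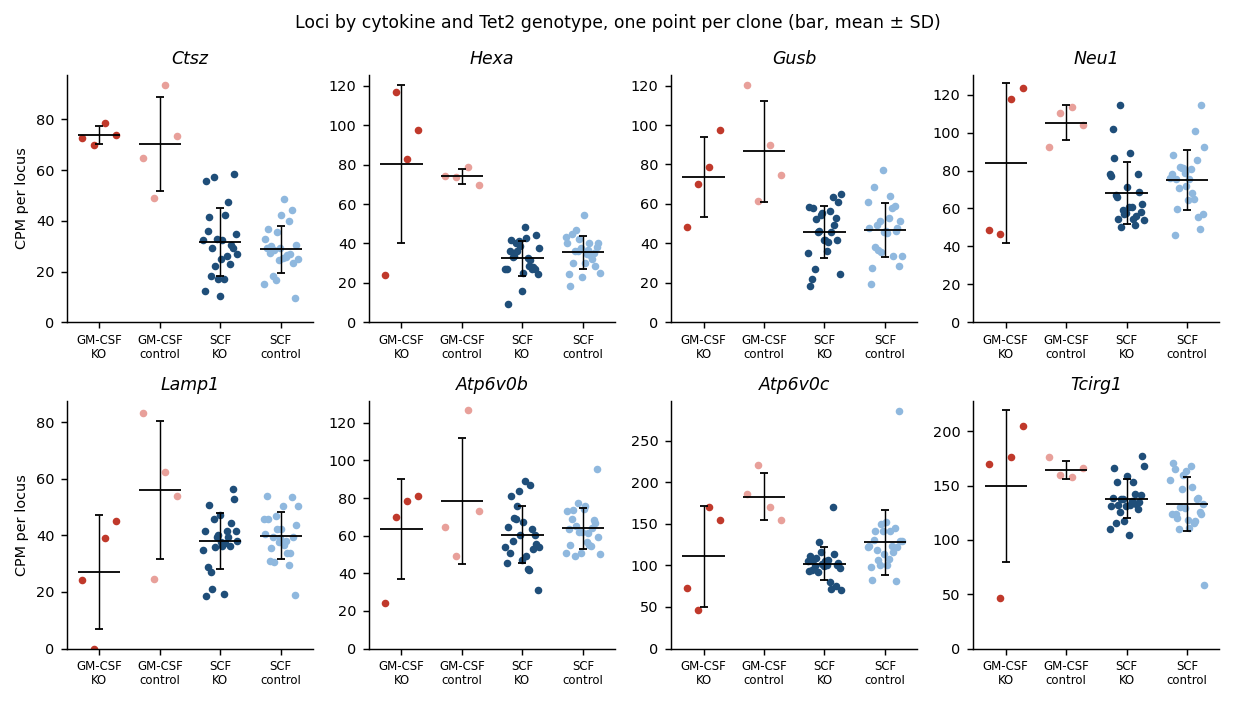
CPM per locus (vertical axes, from 0) of 8 members in every clone, by cytokine and genotype, with 1 point per clone and bars for mean ± SD (n = 4 in GM-CSF groups, 24 in SCF groups). The 4 GM-CSF Tet2 KO points of Ctsz lie between 70.0 and 78.5 CPM and its GM-CSF control points between 49.1 and 93.5 CPM, above all SCF points of the same genotype, whereas the points of Atp6v0b and Atp6v0c overlap between the cytokines.

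Peaks were then tested singly to find which sites within a locus differed between GM-CSF and SCF control lines. Of the 342 member peaks 50 were deep enough to test, of which 47 passed the filter with SCF lines alone. At the stricter limit of adjusted p at or under 0.01 there were 3 higher and 0 lower, but only 1 of the 3 is among those 47. Over all 13171 peaks, not split in this way, 4.80% were higher and 9.88% lower. The 3 member peaks were an intronic peak of Atp6v0c, a peak upstream of Ctsd (cathepsin D, the main aspartic protease of the lysosome) and the promoter peak of Npc1, which exports cholesterol from the lysosome. The Atp6v0c and Ctsd peaks passed this filter only with the GM-CSF lines, where they were high, so their tests are given from the fit with a minimum count of 5 in place of 10, whose filter SCF lines alone passed at both. The Atp6v0c peak, 999 bases inside the gene, had 46.4, 36.8, 25.7 and 36.0 CPM in GM-CSF control clones 19 to 22, against 0, 12.6 and 31.2 CPM (lowest, median, highest) in SCF control clones, with all 4 above the SCF median and overlap at the top of the SCF range (1.36 ± 0.29, edgeR adjusted p = 6.77e-05). In Tet2 KO lines its mean was 14.72 ± 17.2 CPM (SD) in GM-CSF, with counts in 2 of 4 lines, and 12.24 ± 5.45 CPM in SCF. The Ctsd peak, centred at −2365 bases relative to the TSS, had 27.8, 24.6, 22.0 and 36.0 CPM in GM-CSF control clones, against 1.38, 6.41 and 28.6 CPM in SCF control clones. All 4 GM-CSF clones again lay above the SCF median, and 1 of them above every SCF clone (1.90 ± 0.34, edgeR adjusted p = 1.78e-06). In Tet2 KO lines the Ctsd peak had a mean of 18.65 ± 12.74 CPM (SD) in GM-CSF and 9.37 ± 6.01 CPM in SCF. The Ctsd locus as a whole was at 0.13 ± 0.14 (edgeR adjusted p = 0.626), and its promoter peak, with 49.45% of the counts, at 0.01 ± 0.20 (adjusted p = 0.987). The Npc1 promoter peak had 83.4, 12.3, 69.7 and 74.7 CPM in GM-CSF control clones, against 30.2, 46.0 and 68.5 CPM in SCF control clones, with clone 20, from 1 count, below all of them (0.58 ± 0.17, edgeR adjusted p = 0.00626). This last peak did not pass with DESeq2 (adjusted p = 0.0471), nor in the fit with a minimum count of 5 (0.56, edgeR adjusted p = 0.0141). In Tet2 KO lines the Npc1 peak had a mean of 48.11 ± 39.28 CPM (SD) in GM-CSF and 65.95 ± 17.93 CPM in SCF.

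Both sites away from the main promoter peaks are shown, each as 300 bases of the peak on the strand of the gene (mm10, minus strand). Neither holds any of the 6 motifs searched, so no letter is in capitals.
Atp6v0c intronic peak, chr17:24168554-24168853: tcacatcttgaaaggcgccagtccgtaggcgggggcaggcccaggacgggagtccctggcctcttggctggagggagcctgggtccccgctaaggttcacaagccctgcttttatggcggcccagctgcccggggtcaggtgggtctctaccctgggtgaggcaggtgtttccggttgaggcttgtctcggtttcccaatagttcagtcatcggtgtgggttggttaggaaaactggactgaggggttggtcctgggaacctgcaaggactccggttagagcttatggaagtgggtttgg
Ctsd upstream peak, chr7:142390254-142390553: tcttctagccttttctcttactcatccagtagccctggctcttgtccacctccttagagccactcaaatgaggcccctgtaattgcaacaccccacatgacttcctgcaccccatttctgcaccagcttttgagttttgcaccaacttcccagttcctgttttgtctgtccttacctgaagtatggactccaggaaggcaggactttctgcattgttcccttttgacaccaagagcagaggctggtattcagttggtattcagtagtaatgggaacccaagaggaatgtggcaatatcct

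Most peaks of the loci with the largest differences were too shallow for that filter. With the minimum count of 5, 81 member peaks were tested, of which 69 passed the filter with SCF lines alone. In GM-CSF control lines 8 were higher, only 4 of them among those 69. Over all 25927 peaks, not split in this way, 5.71% were higher and 8.34% lower. The 8 member peaks lie in Atp6v0b, Atp6v0c, Ctsd, Gusb, Neu1 and Tcirg1 (1 each) and Ctsz (2). Of the 8, SCF lines alone passed the filter at 4: the Atp6v0c and Ctsd peaks above, the Ctsz promoter peak and a Neu1 peak 7000 bases from the TSS (1.33 ± 0.40, edgeR adjusted p = 0.00826). The other 4, in Atp6v0b, Gusb and Tcirg1 and the second of Ctsz, were tested only because of the GM-CSF lines in which they are high, so they are described by their values, with no test. The Gusb peak was centred in an intron, 2079 bases inside the gene. It had 24.2, 23.3, 28.3 and 33.3 CPM in GM-CSF Tet2 KO clones 19 to 22 and 64.9, 12.3, 33.0 and 24.5 CPM in GM-CSF control clones, against 0, 2.09 and 13.9 CPM (lowest, median, highest) in SCF Tet2 KO clones and 0, 2.01 and 10.1 CPM in SCF control clones. All 8 GM-CSF lines lay above every SCF line of their genotype, although clone 20 and the Tet2 KO line of clone 19 had 1 count each. The Gusb promoter peak, in contrast, had a mean of 38.9 CPM in GM-CSF control lines and 32.0 CPM in SCF control lines (0.41, adjusted p = 0.178 at the minimum count of 10).

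Both Gusb sites are shown, to set the intronic peak beside the promoter, which did not pass. Capitals mark the CRE and the PU.1 motif in the promoter and an E-box in the intronic peak (minus strand, 5′ to 3′, promoter from RefSeq GRCm38.p6).
Gusb promoter, chr5:130003000-130003299: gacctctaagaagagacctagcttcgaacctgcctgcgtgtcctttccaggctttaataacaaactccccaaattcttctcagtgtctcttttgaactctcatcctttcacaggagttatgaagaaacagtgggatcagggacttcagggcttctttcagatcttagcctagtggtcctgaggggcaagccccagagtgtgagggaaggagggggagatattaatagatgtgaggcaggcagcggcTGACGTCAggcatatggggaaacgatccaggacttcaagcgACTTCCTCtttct
Gusb intronic peak, chr5:130000821-130001120: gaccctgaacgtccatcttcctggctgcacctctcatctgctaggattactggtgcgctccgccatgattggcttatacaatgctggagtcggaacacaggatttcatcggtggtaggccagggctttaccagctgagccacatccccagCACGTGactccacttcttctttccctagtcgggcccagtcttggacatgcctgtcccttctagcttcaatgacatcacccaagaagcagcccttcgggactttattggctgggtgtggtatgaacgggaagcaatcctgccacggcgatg

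At Ctsz, the promoter peak had a mean of 25.5 CPM in GM-CSF Tet2 KO lines and 18.7 CPM in GM-CSF control lines, against 13.3 CPM in SCF Tet2 KO lines and 10.9 CPM in SCF control lines (1.12 ± 0.32 in control lines, edgeR adjusted p = 0.00553 at the minimum count of 5). An intronic peak 1209 bases inside the gene had means of 20.2 and 13.8 CPM in GM-CSF Tet2 KO and control lines, against 2.80 and 4.03 CPM in SCF Tet2 KO and control lines. The Ctsz promoter is shown because this locus differed most, with its GC boxes, GGGCGG on either strand, in capitals (minus strand, RefSeq GRCm38.p6).
Ctsz promoter, chr2:174438990-174439289: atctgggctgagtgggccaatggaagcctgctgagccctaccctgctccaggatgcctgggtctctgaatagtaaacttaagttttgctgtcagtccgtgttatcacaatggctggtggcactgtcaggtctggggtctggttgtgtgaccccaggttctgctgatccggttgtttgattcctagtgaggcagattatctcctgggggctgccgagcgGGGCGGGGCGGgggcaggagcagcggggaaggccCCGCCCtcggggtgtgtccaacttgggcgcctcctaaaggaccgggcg

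**Figure D4:**
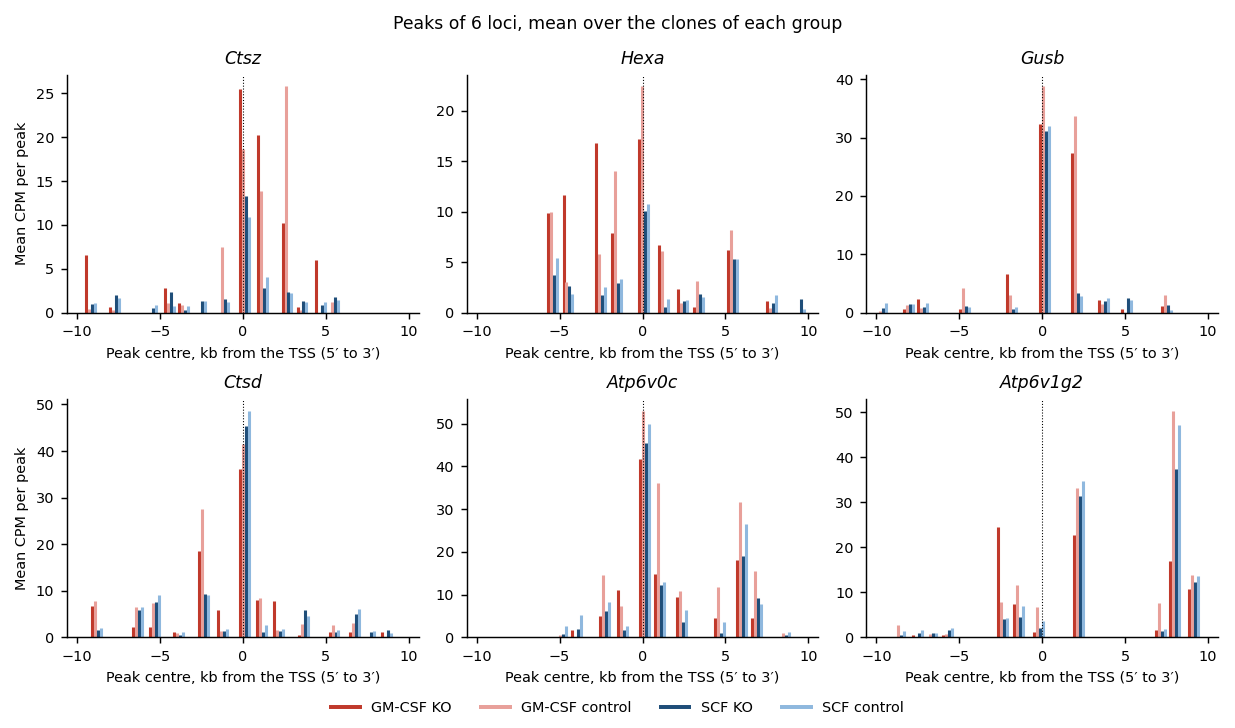
Mean CPM of every peak (vertical axes, from 0) of 6 member loci against the distance of its centre from the TSS in kb, with the 4 bars of a peak drawn side by side for GM-CSF Tet2 KO (n = 4), GM-CSF control (n = 4), SCF Tet2 KO (n = 24) and SCF control lines (n = 24). The Gusb peak 2079 bases inside the gene is high only in the GM-CSF bars (27.3 and 33.7 CPM, against 3.44 and 2.89 CPM), beside a promoter peak of similar height in all 4 groups.

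At adjusted p under 0.05, 8 of the 50 peaks differed in control lines, with 8.48% of all peaks higher and 13.5% lower at that limit. Among the 8 were the Atp6v0c and Ctsd peaks, which passed the filter only with the GM-CSF lines. Promoter peaks of Cd68 (0.84 ± 0.27, adjusted p = 0.014), Grn (progranulin, 0.64 ± 0.20, adjusted p = 0.0117), Gaa (acid alpha-glucosidase, 0.72 ± 0.25, adjusted p = 0.0237) and Tcirg1 (0.84 ± 0.32, adjusted p = 0.0424) were then also higher in the edgeR test. A peak at an internal start of Cd63, 8760 bases inside the gene, was lower, at −1.0 ± 0.34 (adjusted p = 0.0201). At Cd68 and Tcirg1 the promoter of the gene itself thus differed where the summed locus, dominated by neighbours, did not (0.21 ± 0.11, adjusted p = 0.218, and 0.30 ± 0.13, adjusted p = 0.115). When peaks at promoters of other genes only were left out of all loci, an alternative added after seeing the data, 10 members were higher in GM-CSF control lines, against 5.63% of all loci higher and 6.64% lower: the 7 above and Cd68, Tcirg1 and Atp6v1a.

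The second comparison asked what loss of Tet2 did to these loci in SCF clones, with the Tet2 KO and control line of each clone as a pair. Differences were small. Of 36 members tested (Atp6v1h, Ctsh and Ctss were too low), 2 were higher in Tet2 KO lines and 3 lower at adjusted p under 0.05 in edgeR, against 4.64% of all 10408 loci higher and 1.50% lower. The higher loci were Npc1 and Npc2, the membrane and luminal partners that carry cholesterol out of the lysosome. Both lost the call with upper-quartile scaling, a GC offset, the promoter share as covariate or no pairing, and each kept it in 5 alternatives (of 11 for Npc1 and 12 for Npc2). The lower loci were all of the proton pump: Atp6v0c and Atp6v0a2 of V0 and Atp6v1g2 of V1, of which Atp6v0a2 kept its call in 3 of 11 alternatives. Of all members tested, 28 had a negative and 8 a positive fold change, with a median of −0.07 on the log2 scale against −0.01 for all loci. Over all 10408 loci, 5612 were negative and 4796 positive. No cathepsin passed (0 of 5, the lowest at −0.17), and neither did Tfeb (−0.04 ± 0.08, adjusted p = 0.859).

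Atp6v0c had 70.4, 101.4 and 170.3 CPM (lowest, median, highest) in SCF Tet2 KO lines, against 81.3, 122.9 and 286.1 CPM in SCF control lines. It was lower in the Tet2 KO line of 19 of 24 clones, with broadly overlapping groups (−0.31 ± 0.07, edgeR adjusted p = 0.000837). Atp6v1g2, a V1 stalk subunit best known from neurons, had 57.2, 97.7 and 137.9 CPM in SCF Tet2 KO lines, against 90.0, 118.3 and 142.9 CPM in SCF control lines. It was also lower in 19 of 24 clones (−0.28 ± 0.07, edgeR adjusted p = 0.00325). Atp6v0a2, the a2 subunit of V0, had 18.8, 44.0 and 81.2 CPM in SCF Tet2 KO lines, against 34.3, 50.3 and 85.8 CPM in SCF control lines, lower in 18 of 24 clones (−0.31 ± 0.10, adjusted p = 0.0423).

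Npc1 had 48.6, 78.7 and 121.9 CPM in SCF Tet2 KO lines, against 37.7, 64.2 and 88.1 CPM in SCF control lines, higher in 18 of 24 clones (0.26 ± 0.08, edgeR adjusted p = 0.0404). Npc2 had 119.7, 145.6 and 234.4 CPM in SCF Tet2 KO lines, against 85.8, 126.5 and 230.1 CPM in SCF control lines, higher in 16 of 24 clones (0.21 ± 0.06, edgeR adjusted p = 0.02). The Tet2 KO and control groups overlapped at all 5 loci. The Npc2 locus is shared in full with Isca2, whose TSS is 99 bases away, and the Atp6v0c locus to 98.75% of its counts with Amdhd2. The Atp6v1g2 locus is shared to 99.36% of its counts with Nfkbil1 and to 92.03% with Ddx39b.

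**Figure D5:**
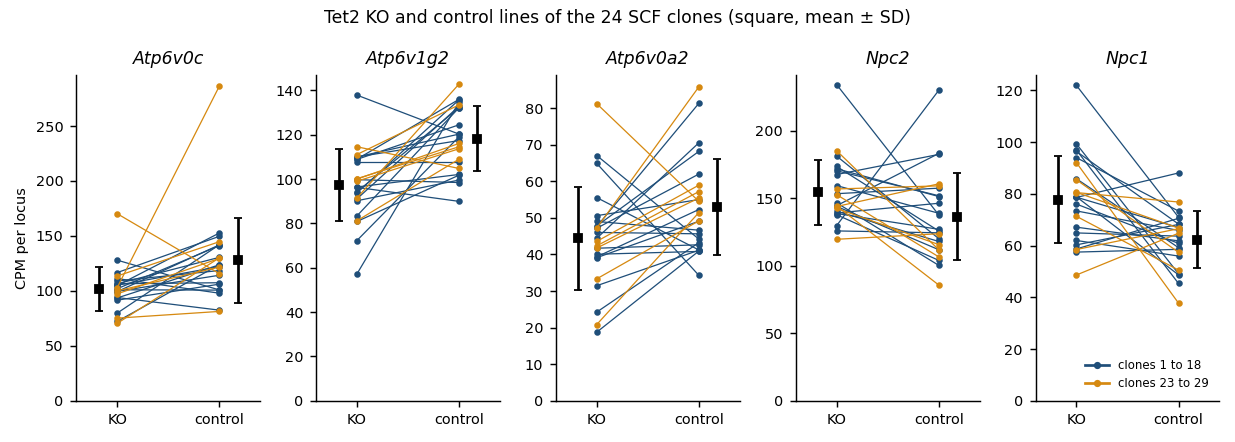
CPM per locus (vertical axes, from 0) in the Tet2 KO and control line of each of the 24 SCF clones, joined by a line per clone, for the 5 members past the threshold, with squares for mean ± SD and clones 1 to 18 and 23 to 29 in separate colours. Lines slope up toward the control for Atp6v0c in 19 of 24 clones and down for Npc1 in 18 of 24, with wide overlap between the lines of a group.

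Clones 1 to 18 and clones 23 to 29 differ in the share of counts on chromosome X (1.47% to 1.67% and 1.13% to 1.40% per library), so both sets were also fitted alone. Atp6v0c was −0.29 ± 0.08 in clones 1 to 18 (adjusted p = 0.0261) and −0.37 ± 0.13 in clones 23 to 29 (adjusted p = 0.273), and was lower in 13 of 17 and 6 of 7 clones. The other 4 loci kept their direction in both sets and passed in neither. Of the 5, only Atp6v0c and Atp6v1g2 also passed without pairing, while Atp6v1g2 was at −0.27 ± 0.10 (adjusted p = 0.0887) once peaks at promoters of other genes only were left out.

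Among single peaks, 37 member peaks were tested for Tet2 loss in SCF clones and 0 passed at 0.01 in edgeR, against 2.22% of all 7871 peaks higher and 0.280% lower, and DESeq2, which gave an adjusted p for 10 of the 37, also gave 0. At an unadjusted p under 0.05 in edgeR there were 10 of the 37, against 1485 of all 7871 peaks. At adjusted p under 0.05, where 4.08% of all peaks were higher and 1.19% lower, 3 member peaks differed. The Npc1 promoter peak had 38.2, 64.9 and 121.9 CPM (lowest, median, highest) in SCF Tet2 KO lines, against 30.2, 46.0 and 68.5 CPM in SCF control lines (0.30 ± 0.09, adjusted p = 0.0288). At the Atp6v0c locus the peak was the one at the Amdhd2 promoter, which holds the CLEAR core printed above (−0.45 ± 0.14, adjusted p = 0.0347). At Atp6v1g2 it was the peak at the promoter of Ddx39b, 7954 bases downstream (−0.36 ± 0.10, adjusted p = 0.0141). At both pump loci these peaks are promoters of neighbours.

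In GM-CSF clones, Tet2 loss changed no member past the threshold (0 of 37), and 0 of 12733 loci passed in edgeR (0%), with 687 loci and 4 members at an unadjusted p under 0.05 and 0 members in DESeq2. The 4 members were Ctsl (cathepsin L, −0.82 ± 0.32), Npc2 (0.38 ± 0.18), Npc1 (−0.49 ± 0.24) and Atp6v1g2 (−0.39 ± 0.19). With 4 pairs, of which 2 are shallow, the intervals were wide. The 95% interval of the difference was −0.55 to 0.38 for Ctsz and −0.19 to 0.69 for Hexa. This fit held the SCF pairs too, and its intervals use a spread shared by the pairs of both cytokines. They do not measure the spread among the GM-CSF pairs alone. Ctsl had 0 to 38.1 CPM in GM-CSF Tet2 KO lines and 48.9 to 74.2 CPM in GM-CSF control lines, lower in the Tet2 KO line of 4 of 4 clones. The difference between the effects of Tet2 loss in GM-CSF and in SCF clones was not significant for any member (0 of 37) or locus (0%), with 534 loci and 1 member, Npc1 (−0.77 ± 0.25, adjusted p = 0.998), at an unadjusted p under 0.05, and DESeq2 gave 0 members.

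Other lysosomal genes, a list of 74 of which 73 have a peak, were described in the same way. In GM-CSF against SCF control lines, 4 of 63 tested were higher, against 5.77% of all loci: Igf2r (the mannose 6-phosphate receptor that delivers hydrolases, 1.42 ± 0.38), Tmem175 (a lysosomal ion channel, 0.63 ± 0.16), Nagpa (an enzyme that completes the mannose 6-phosphate tag, 0.56 ± 0.19) and Asah1 (acid ceramidase, 0.43 ± 0.15). The median of this list was 0.07 on the log2 scale. In Tet2 KO lines, Clcn7 (1.03 ± 0.34), Cln3 (0.72 ± 0.23) and Flcn (0.65 ± 0.23) were higher and Scpep1 (−0.98 ± 0.31) lower in GM-CSF, of 58 tested, against 4.23% of all loci higher and 5.61% lower. For Tet2 loss in SCF clones, Tmem192 was higher (0.26 ± 0.07, edgeR adjusted p = 0.0107) and Cln3 lower (−0.37 ± 0.11, adjusted p = 0.0148), of 54 tested, with a median of −0.01, against 4.64% of all loci higher and 1.50% lower.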

How the data were processed

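Bulk ATAC-seq was performed by the authors on 56 libraries from 28 clones. Per the labels, reads were handled with Bowtie2, SAMtools and Picard on mm10; the sources used here give no versions, nor how duplicates were treated or whether fragments or insertions were counted. The authors deposited a matrix of raw counts over 297361 peaks of 301 bp, which they had built from summits of single-cell ATAC-seq and from ImmGen peaks. No value column was left unused (0).

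Counts were summed over peaks centred within 10 kb of the TSS of each of 21728 protein-coding genes (GENCODE vM21), of which 18691 had a peak. Neighbouring loci can share peaks. Loci were tested with edgeR 4.0.16 (R 4.3.3, TMM scaling, filterByExpr with a minimum count of 10, quasi-likelihood test, Benjamini-Hochberg adjusted p under 0.05) and peaks likewise with adjusted p at or under 0.01. Tet2 KO and control lines were paired by clone, as both derive from the same cells per the labels; cytokines were compared between clones. DESeq2 1.42.0, other scalings, filters, windows and subsets of clones were alternatives. CPM are scaled with a common TMM over all libraries, and log2 fold changes come from the fits with their SE. Python 3.11.15, numpy 2.4.6, pandas 2.3.3, scipy 1.17.1 and matplotlib 3.10.9 were used for the rest. The fits were tested on simulated data. Any of the 39 listed members could be named, those past the threshold with values per clone, and of other lysosomal genes those past the threshold. One result among the other lysosomal genes is not reported here. Members and lists were chosen with earlier results of these data known. P-values measure the spread between clones, which for Tet2 loss in GM-CSF clones was shared with the SCF pairs.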

Additional observations from a re-analysis of the deposited data

Results flagged for a closer look

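Among the 77 sets of 4 GM-CSF lines examined (1 per locus and genotype, leaving out sets with no spread), 2 held a line far from the other 3, and chance flags about 1 in 20 such sets. Both were the Tet2 KO line of clone 20, the shallowest library. At Atp6v0a2 it had 0 CPM, from 0 counts, against 40.4 to 48.5 CPM in the other 3 lines. At Tfeb it had 186.7 CPM, from 8 counts, against 48.5 to 69.0 CPM in the other 3 lines. The part of depth in these values was not tested.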

How the results depend on the processing

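For Tet2 loss in SCF clones, 5 members passed, and 3 or fewer did under 8 of the alternatives: 1 in a 1 kb window, 3 with DESeq2 (which gave an adjusted p for 11 of 36), 3 with a GC offset together with the clone pairing, 1 in clones 1 to 18 alone, 0 in clones 23 to 29 alone, 2 with no replicate block (Atp6v0c and Atp6v1g2), 2 with the promoter share as covariate and 3 with upper-quartile scaling. Single calls were lost in other alternatives too. Atp6v0a2 lost its call with library totals, with no filter on low counts and without clones 3, 4, 13 and 27. Atp6v1g2 lost its call without peaks at promoters of other genes only. Over all loci the calls were 483 higher and 156 lower with TMM, 331 and 257 with upper-quartile scaling, and 428 and 64 with library totals, so the balance of directions depended on scaling. For GM-CSF against SCF, leaving out 1 clone gave 3 to 9 calls in control lines (7 with all clones) and 3 to 7 in Tet2 KO lines (8 with all clones). Against SCF clones 23 to 29 only, control lines gave 4; in Tet2 KO lines a 1 kb window gave 3 and DESeq2 gave 4. Ctsz and Hexa passed in each of the 14 alternatives run for them in both genotypes, which leave out the 1 kb window, where they were too low to test. Lamp1 reversed to −0.0039 in control lines in the 1 kb window. At an adjusted p under 0.05, 3 member peaks passed for Tet2 loss and 8 for the cytokines, and a minimum count of 5 gave 8 for the cytokines. Of the 8 at the minimum count of 5, 4 were tested only because of the GM-CSF lines in which they are high. For Tet2 loss in GM-CSF clones and for its difference between the cytokines, leaving out 1 clone gave 0 to 0 calls. Of 286 values of single loci or peaks under an alternative, 207 kept direction and call, 78 lost the call and 1 reversed. The causes were not tested. Both lines of clones 19 and 20 hold 39379 to 114885 counts in all, so their values at single loci rest on few counts.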
